A study of Mus musculus with 24 samples.

Results

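The response of cultured SOD1G93A mouse astrocytes to a mixture of inflammatory proteins was measured by bulk RNA-seq, in which fragments of RNA from a culture are sequenced and counted for each gene. The samples were chosen from their labels as the 3 activated and the 3 quiescent astrocyte libraries of this genotype, 6 of the 24 samples in the series. The study asked whether glia that carry a disease-causing form of SOD1 react to activation as normal glia do. Astrocytes were taken from the cortex of postnatal mice by immunopanning, in which dishes coated with CD45, BSL I and O4 first removed other cells and an antibody to HepaCAM, an astrocyte adhesion protein, then held the astrocytes, which grew in serum-free medium with HBEGF. Activated cultures received a mixture of 3 ng/mL of IL-1α, 30 ng/mL of TNFα and 400 ng/mL of C1q, whereas quiescent cultures received PBS. The mice carried a SOD1G93A transgene and were bred to C57BL/6J, and cultures of WT mice, treated alike, served as the comparison (3 quiescent and 3 activated libraries). The length of the treatment is not given in the labels. The sources read here do not say whether the libraries of a group came from separate animals or cultures, so p-values measure the spread between these samples, which may be technical. The paper refers to a supplementary table for numbers of biological replicates, which was not available here.

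Values are normalized counts, the reads of a gene divided by a size factor of the library. The quiescent SOD1G93A libraries held 9526331, 7251063 and 3292225 reads, and the activated ones 3721779, 3929272 and 2135439. Depth therefore moved with treatment, since the quiescent group held the deepest libraries, although the groups overlapped. A gene is said to have risen or fallen where limma gave an adjusted p under 0.001 and its level changed more than 2-fold. Fold changes are on the scale of log2(normalized count + 1). Those of weakly expressed genes depend on the added 1 and on single libraries at or near 0, and can be too small or too large. For 3 libraries against 3, an exact permutation test of a single gene cannot give a two-sided p below 0.1, so the tests rest on the spread pooled across genes. Gene positions are those of GENCODE M21 on GRCm38.

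IL-1α and TNFα bind separate receptors whose adaptor proteins converge on the kinases that free NF-kB from its inhibitors, and NF-kB then drives genes for chemokines, cytokines, adhesion proteins and its own inhibitors. C1q is the recognition protein of the classical complement pathway. In cultured astrocytes the combination is known to induce a reactive state with high C3 and loss of several supportive functions, and astrocytes in such a state have been described in several neurodegenerative diseases. Interferons act through another route, in which factors such as STAT2 and IRF9 switch on antiviral genes, and IRF1 takes part in switching on antigen presentation.

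The cultures carried the RNA of astrocytes. Slc1a3, the glutamate transporter GLAST, was at 9649.9, 8708 and 7237 normalized counts in the quiescent libraries and 10009.6, 10037 and 10580.3 in the activated ones. Hepacam, the protein used for panning, was at 2321, 2078 and 1851 when quiescent and 1104, 1085 and 1124 when activated. Both were abundant in all 6 libraries. Hepacam was lower in every activated library, but its log2 fold change of -0.91 ± 0.10 (SE) stayed short of 2-fold (limma adjusted p = 1.26e-06). The mouse gene Sod1, a superoxide dismutase, was at 1092, 1134 and 1177 in quiescent and 1257, 1417 and 1514 in activated libraries, a log2 fold change of 0.30 that did not pass. Reads of the human transgene were not separated from those of mouse Sod1 here, so its counts may include some of them.

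Markers of microglia were present at low levels. Of 22 microglia markers 18 were tested, none rose or fell by the limits, but all 18 had values below 0, and their median log2 fold change was -0.67 where that of all genes was -0.01. Their summed level was 3670.3, 3563 and 2567 normalized counts in the quiescent libraries and 2739, 1952 and 2159.9 in the activated ones. The groups overlapped in this sum, with the third quiescent library below the first activated one. Per kilobase of gene the most abundant marker was Ctss, a lysosomal protease, at 324, 317 and 203 and then 215, 120.1 and 156, and no marker of this list was at 0 in all libraries. Csf1r, the receptor that microglia need to survive, was at 330.4, 333 and 231 and 213, 154 and 169. In bulk samples fewer cells of a type and less RNA per cell cannot be told apart.

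Endothelial markers were nearly absent, since 11 of 12 lay below the mean of 10 normalized counts needed for testing and Cldn5, Cdh5 and Tie1, which define these cells, had 0 reads in all 6 libraries. The exception was Flt1, a VEGF receptor and the most abundant member per kilobase, which is counted with the responses of single genes below. Their summed level was 45.9, 50.4 and 46.6 in quiescent and 538, 534 and 515 in activated libraries. Flt1 was at 20.2, 23.8 and 25.2 and then 514, 511 and 496, so it made up most of the activated sums but a smaller part of the quiescent ones. Pericyte and fibroblast markers summed to 407, 392 and 337 and 355, 379.9 and 401. These sums overlapped between the groups. Tagln, a smooth muscle protein, was the most abundant per kilobase, and none of the 12 was at 0 in every library. Dcn and Lum, a pair of matrix proteoglycans typical of fibroblasts, and Pdgfrb, a pericyte receptor, rose among the 5 members tested. Dcn and Lum reached the mean needed for testing through the activated libraries alone, so the number tested and the list median of 1.21 depend in part on the filter. Lum went from 2.29, 1.16 and 2.52 to 69.3, 79.0 and 59.1, so its fold rests on few quiescent reads, and the call of Pdgfrb (log2 1.21) was lost under several settings, among them leaving out either of the first 2 quiescent libraries or any activated library. Genes of the oligodendrocyte lineage and of neurons were present at higher levels and are described with the genes that fell. The part of other cells in the results was not tested.

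The response was large. Of 12203 genes tested, 1604 were called (13.1%), 823 of them higher (6.74%) and 781 lower (6.40%) after activation. The filter takes a mean over both groups, so a gene low in one can be tested through the other. Counts and medians of the gene lists below therefore depend in part on the filter, through genes such as Bcl3, Map3k8, Ifi44 and Nlrc5. When at least 10 normalized counts were required in every library 677 genes rose and 692 fell. Groups did not overlap in 6341 genes (52.0%), and all 1604 called genes were among these. An unadjusted limma p under 0.05 was found for 6142 genes (50.3%). In WT astrocytes 1424 of 12336 genes were called (11.5%), 740 higher (6.0%) and 684 lower (5.54%). Called in both genotypes were 1219 genes, which moved in the same direction in all cases and made up 76.0% of the SOD1G93A calls and 85.6% of the WT calls. The remaining 385 SOD1G93A calls are not thereby shown to differ from WT, since the difference itself was called for 20 of them.

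The largest rises by the naming rule were in genes of varied function. Aldh1a3 (chromosome 7, 66390890 to 66427517), a retinaldehyde dehydrogenase, was at 12.8, 7.53 and 0 in quiescent libraries and 433, 436 and 449 in activated ones. Its log2 fold change of 6.49 ± 0.62 was the highest of the named genes but rests on few quiescent reads, and the call was lost without the intensity trend in limma. Steap4 (chromosome 5, 7960457 to 7982213), a reductase of iron and copper, went from 78.5, 88.7 and 51.7 to 5296, 5976 and 5491. Every activated library exceeded every quiescent one by a wide margin. The log2 fold change of Steap4 was 6.27 ± 0.15 (limma adjusted p = 5.08e-14). Lcn2 (chromosome 2, 32384633 to 32388252), a secreted protein that binds bacterial iron carriers and marks reactive astrocytes, was at 166, 183 and 137 and then 10976, 12693 and 11044, a log2 fold change of 6.16 ± 0.11 (limma adjusted p = 2.25e-15). Tslp (chromosome 18, 32815383 to 32819797), a cytokine best known from epithelia, was at 22.5, 20.3 and 15.1 and then 1347, 1474 and 1282. Its groups stood far apart, at a log2 fold change of 6.09 ± 0.14 (limma adjusted p = 5.08e-14).

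Genes of varied function had the largest falls. Aldh1a1 (chromosome 19, 20492715 to 20643465), another enzyme of retinoic acid synthesis, went from 344, 404 and 437 to 26.3, 25.2 and 42.2, opposite in direction to Aldh1a3. Its log2 fold change was -3.65 ± 0.18 (limma adjusted p = 1.67e-10). Dscaml1, a cell adhesion protein of the immunoglobulin family, was at 272, 256 and 324 and then 19.1, 22.9 and 25.3. Wnt5a (chromosome 14, 28504750 to 28527448), a secreted ligand of non-canonical Wnt signalling, was at 659.8, 595 and 589 and then 49.0, 46.9 and 71.7. In neither gene did the groups come near each other. The other falls named by the rule were Als2cl (log2 -3.58), Mylk, a myosin kinase (-3.47, a call lost without the intensity trend), Chrna4, a nicotinic receptor subunit (-3.45), Cmtm5, a membrane protein (-3.40), and E030003E18Rik, a gene with no position in the annotation used (-3.44).

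**Figure D1:**
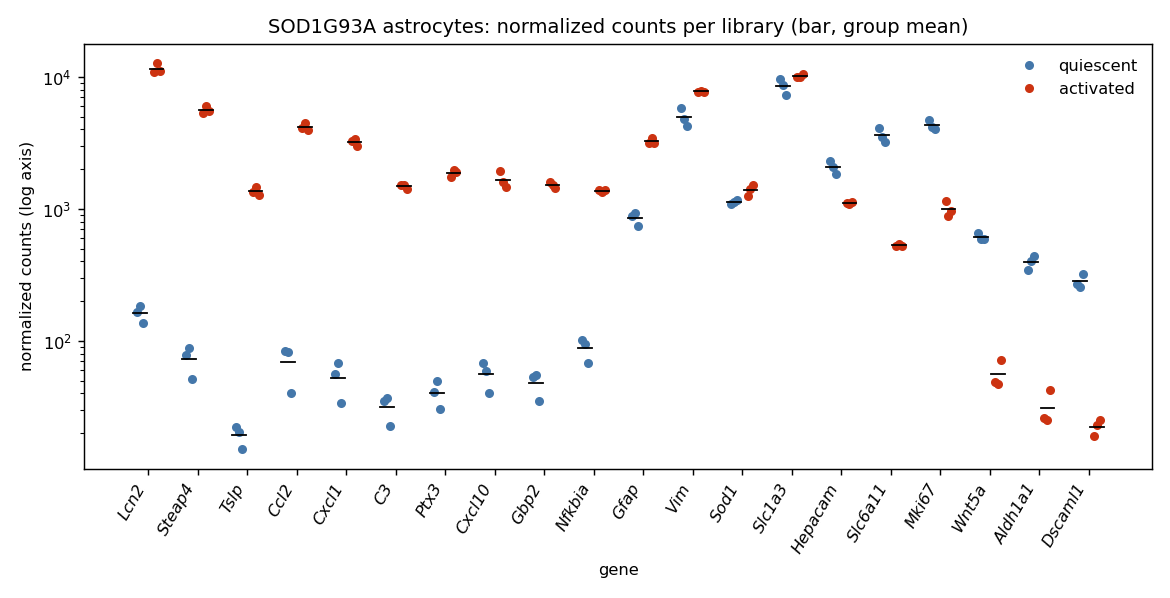
Normalized counts (log axis) of 20 genes in the 3 quiescent and 3 activated SOD1G93A astrocyte libraries, each point a library and each bar a group mean. For Lcn2 the quiescent libraries lie between 137 and 183 and the activated ones between 10976 and 12693, while Slc1a3, at 7237 to 10580, was high in all 6.

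Of 26 tested members of the list of IL-1 and TNF receptors and adaptors 7 rose and none fell, with a median log2 fold change of 0.20. The shares over all tested genes were 6.74% that rose and 6.40% that fell. Il1r1, the signalling receptor for IL-1α, was at 21.6, 14.5 and 18.9 in quiescent and 141, 166 and 135 in activated libraries. Il1rap, its obligate partner chain, was at 238, 201 and 171 and then 1261, 1274 and 1183. For both chains all activated libraries lay above all quiescent ones, with log2 fold changes of 2.95 ± 0.19 and 2.61 ± 0.11 (limma adjusted p = 4.90e-09 and 3.49e-11). Myd88, the adaptor that both recruit, rose by 2.09 and Irak2, a kinase of the same complex, by 1.60. The other kinases and the ligase of this complex did not pass, at log2 0.31 for Irak1, 0.20 for Irak4 and -0.39 for Traf6. Il1rn, the natural receptor antagonist, had a log2 fold change of -0.77 and was likewise not called.

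On the TNF side Tnfrsf1a, the widely expressed TNF receptor, was at 476, 443 and 371 and then 997, 1120.2 and 1166. It rose by 1.35 ± 0.11 (limma adjusted p = 3.49e-08) with no overlap. Tnfrsf1b, the second TNF receptor and one that microglia also express, was at 155, 145 and 108 and then 109.9, 82.4 and 105, and its groups overlapped. Birc3, a ubiquitin ligase of the receptor complex, rose by 2.23, a call lost without the intensity trend, and its close relative Birc2 had a log2 fold change of 0.20. Values for Ripk1 (0.05), Fadd (-0.06), Traf3 (0.02) and Map3k7 (0.08), which carry the signal onward, were near 0. Tradd (1.30), Traf2 (0.82) and Traf1 (-0.92), also of the receptor complexes, were further from 0 and not called. Map3k8, a kinase that links TNF and IL-1 signals to ERK, went from 5.05, 6.95 and 3.78 to 66.9, 56.1 and 73.8 and rose by 3.43. Of the IKK complex that targets the NF-kB inhibitors, Chuk (0.11) and Ikbkb (-0.18) were near 0 and the scaffold Ikbkg, at 0.92, fell short of 2-fold.

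Of NF-kB subunits and their inhibitors 10 of 14 tested genes rose and none fell, and the median log2 fold change was 2.11. Nfkbia (chromosome 12, 55489410 to 55492647), which encodes IkBα and is itself a classical NF-kB target, was at 102, 94.5 and 68.1 in quiescent and 1383, 1334 and 1396 in activated libraries. The activated libraries lay close to each other and far above the quiescent ones, at a log2 fold change of 3.96 ± 0.13 (limma adjusted p = 1.24e-12). Bcl3 and Nfkbiz, nuclear IkB proteins that modify which targets are used, rose by 5.04 and 3.08. Among subunits Relb (2.91), Nfkb2 (2.21) and Nfkb1 (2.09) rose, whereas Rela, the subunit with the main activating domain, had a log2 fold change of 0.95 at 357, 309 and 305 and then 559, 634 and 692. Tnfaip3, the deubiquitinase A20 that limits the pathway, rose by 2.23 and its partner Tnip1 by 2.13. Nfkbie (2.08) and Nfkbib (1.10), further cytoplasmic inhibitors, completed the list of rises, and the call of Nfkbib was lost without quiescent replicate 3. Rel (0.44), Tnip2 (0.39) and Cyld (0.19) were, like Rela, not called.

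Chemokine genes for monocytes and neutrophils were among the strongest responders. Of 29 listed chemokines 16 were expressed highly enough to test, 8 rose and none fell (median 1.21). Ccl2 (chromosome 11, 82035571 to 82037453), the main attractant of monocytes, was at 84.4, 82.3 and 40.3 when quiescent and 4085, 4481 and 3953 when activated. Its neighbour Ccl7, a ligand of the same receptor, was at 5.96, 8.11 and 7.56 and then 293, 360.4 and 287. Cxcl1 (chromosome 5, 90891241 to 90893115), a neutrophil attractant, was at 56.4, 67.8 and 34.0 and then 3247, 3417 and 2999. For these 3 genes the quiescent libraries were far below the activated ones, which lay close to each other. The log2 fold changes were 5.97 ± 0.20 for Ccl2, 5.26 ± 0.19 for Ccl7 and 5.96 ± 0.18 for Cxcl1 (limma adjusted p = 1.52e-12, 5.45e-12 and 4.35e-13). Cxcl5, which acts on the same receptor as Cxcl1, rose by 5.86 from 9.18, 5.79 and 1.26. Ccl7 and Cxcl5 reached the mean needed for testing through the activated libraries alone. The counts and the median of the chemokine list therefore depend in part on the filter. Chemokine genes that are near-identical copies can share reads, so single Ccl values carry that uncertainty.

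Of 21 tested cytokines and growth factors 10 rose and none fell, with a median of 1.12. Lif, an IL-6 family cytokine with known effects on glia and neurons, was at 11.0, 12.2 and 12.6 and then 564, 574 and 521, a log2 fold change of 5.42 ± 0.14 (limma adjusted p = 1.76e-13). Clcf1, of the same family, went from 20.6, 27.8 and 20.2 to 368, 364 and 283 and rose by 3.83. Il6 itself changed far less, from 27.1, 30.1 and 23.9 to 60.9, 68.7 and 61.2. Its groups did not overlap and the log2 fold change was 1.21 ± 0.20 (limma adjusted p = 1.08e-04), but the call was lost without activated replicate 2. Csf1, the growth factor of microglia, rose by 2.75 to 1744, 1612 and 1709. Csf2, which drives myeloid cells, rose by 3.82 from a total of few reads. It reached the mean needed for testing through the activated libraries alone, so the counts and median of this list depend in part on the filter.

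The genes of the applied cytokines themselves did not rise. Il1a was at 166, 161 and 99.6 in quiescent and 111, 69.8 and 88.6 in activated libraries. Tnf was at 49.6, 49.8 and 29.0 and then 40.6, 21.7 and 29.5. C1qa, a chain of C1q, was at 175, 177 and 113 and then 117, 89.3 and 80.2. All 3 are typical of microglia, their groups overlapped and none was called, with log2 fold changes of -0.64, -0.47 and -0.68 beside the median of -0.67 for the microglia markers. Whether these reads came from microglia was not tested.

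Panels of marker genes used for reactive astrocytes were examined. In the pan-reactive panel 10 of 11 tested genes rose and the median was 4.37, in the neurotoxic-type panel 7 of 11 rose (median 1.99), and in the ischemia-type panel 8 of 11 rose (median 2.13). None of the members fell. Gfap, the intermediate filament protein of reactive astrocytes, was at 881, 937 and 739.8 and then 3168, 3445 and 3147. It rose by 1.94 ± 0.10 (limma adjusted p = 3.69e-10), and its groups were well separated. Vim, another intermediate filament protein, was the pan-reactive member that did not pass, at 5825, 4831 and 4249 and then 7719.9, 7868 and 7749.6 and a log2 fold change of 0.66. Timp1, an inhibitor of matrix proteases, went from 74.3, 84.6 and 41.6 to 3228, 3689 and 3548. It rose by 5.74 ± 0.18 (limma adjusted p = 1.05e-12).

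Among neurotoxic-type genes C3 (chromosome 17, 57203970 to 57228136), the central complement protein, was at 35.3, 37.1 and 22.7 in quiescent and 1506, 1522 and 1417 in activated libraries. The highest quiescent library was far below the lowest activated one, and the log2 fold change was 5.53 ± 0.15 (limma adjusted p = 1.91e-13). Gbp2, an interferon-inducible GTPase, was at 53.7, 55.6 and 35.3 and then 1589, 1522 and 1434, a log2 fold change of 4.97 ± 0.14 (limma adjusted p = 3.58e-13). Serping1, the C1 inhibitor, rose by 3.26 from few quiescent reads. H2-D1, a class I antigen-presenting protein in the same panel, was at 239, 237 and 184 and then 515, 332 and 458, and at 0.97 it fell just short of 2-fold.

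In the ischemia-type panel Ptx3, a soluble pattern recognition protein, was at 41.3, 49.8 and 30.2 and then 1758, 1989.8 and 1894, a log2 fold change of 5.53 ± 0.14 (limma adjusted p = 1.49e-13). Tm4sf1, a membrane protein of the tetraspanin-like family, rose by 5.10 and Tgm1, a transglutaminase, by 4.94. Ptgs2, the inducible cyclooxygenase COX-2, was already at 378, 449.7 and 273 in quiescent libraries and reached 1605, 1660.3 and 1485. It rose by 2.13. In the list of nitric oxide and prostaglandin genes 4 of 10 tested genes rose and 1 fell (median 1.17). Pla2g4a, the phospholipase that releases arachidonic acid, rose by 2.20, Ptges2 by 1.68 and Ptges by 1.35, the last a call lost without the intensity trend. Nos2, the inducible nitric oxide synthase, had a log2 fold change of 0.90 at 16.5, 18.5 and 8.82 and then 32.3, 28.6 and 21.1 and did not pass.

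Complement genes were mixed. Of 14 tested genes 6 rose and none fell, the other 8 had values below 0 and were not called, and the list median was -0.16. Besides C3 and Serping1 the rises were in C1ra and C1s1, the proteases of the C1 complex, in C4b, their substrate, and in Clu, a fluid-phase inhibitor. C4b was at 41.3, 55.6 and 50.4 and then 302, 254 and 226. Its log2 fold change was 2.38 ± 0.15 (limma adjusted p = 3.66e-09), with all activated libraries higher. C1ra rose by 4.22 and C1s1 by 2.45, both from few quiescent reads, and both reached the mean needed for testing through the activated libraries alone, so the counts of this list depend in part on the filter. The C1s1 call was lost with library depth as a term. Clu, at 1.05, lost its call with quantile normalization, with edgeR, without the intensity trend and without quiescent replicate 3.

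Genes of iron and redox metabolism rose in 10 of 21 tested cases with no falls (median 0.91). Cp, the ferroxidase ceruloplasmin, went from 482, 468 and 340.3 to 10713, 11036 and 9941. It rose by 4.63 ± 0.12 (limma adjusted p = 1.63e-13). Fth1, the heavy chain of the iron store ferritin, was at 7404, 7752 and 6772 and then 24533, 26805 and 25179, with the highest mean of its list in both states. Fth1 rose by 1.80. Sod3, the extracellular superoxide dismutase, rose by 3.13 from 20.2, 19.1 and 13.9 to 167, 146 and 169, in contrast to the value for Sod1 above. Srxn1, a sulfiredoxin that restores oxidised peroxiredoxins, rose by 3.08.

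**Figure D2:**
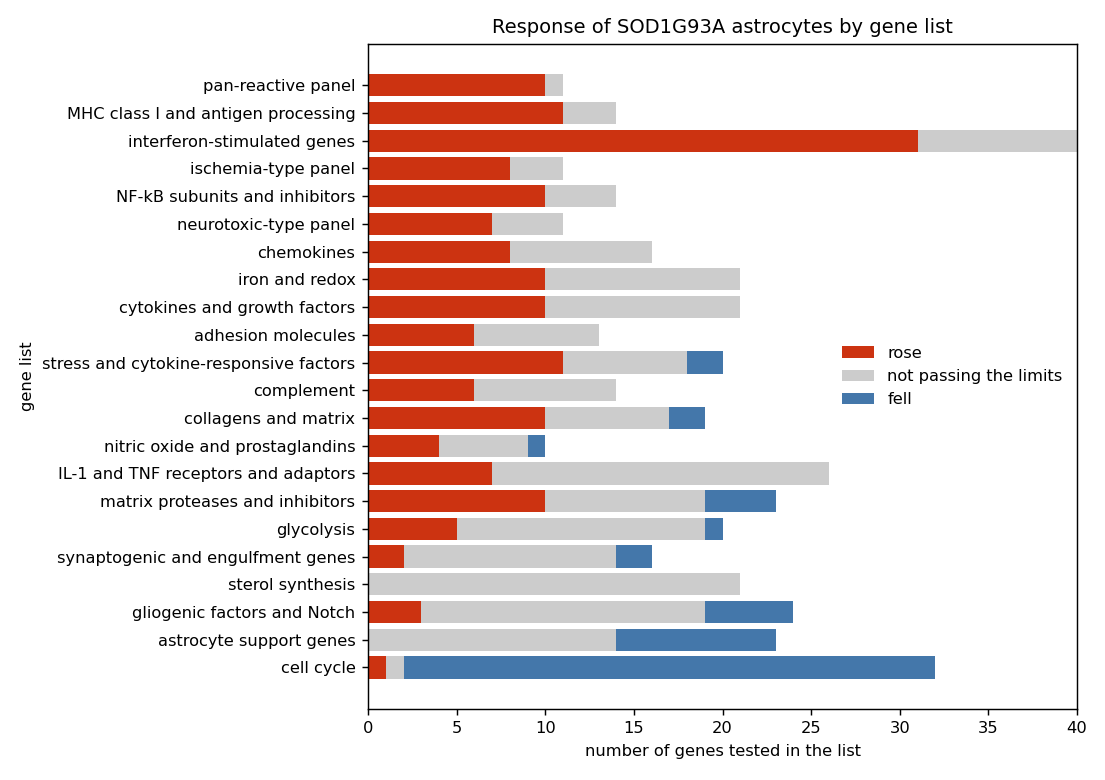
Number of tested genes (horizontal axis) that rose, fell or did not pass the limits in each of 22 gene lists, for activated against quiescent SOD1G93A astrocytes. Of 32 cell cycle genes 30 fell, and 31 of 40 interferon-stimulated genes rose.

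Interferon-stimulated genes rose widely, although interferon was not part of the mixture. All 40 listed genes were tested, 31 rose and none fell, and the median log2 fold change was 2.45. Gbp6, a guanylate-binding GTPase of cell-autonomous defence, was at 31.2, 34.8 and 20.2 and then 1122, 849 and 915, a log2 fold change of 5.04 ± 0.17 (limma adjusted p = 2.38e-12). Ifi44, an antiviral protein of the same program, was at 2.29, 6.37 and 2.52 and then 323, 231 and 175. It rose by 5.75 from few quiescent reads. Iigp1, an immunity-related GTPase, rose by 4.44.

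The transcription factors of interferon signalling were part of this rise. Irf9 (chromosome 14, 55603571 to 55610030), the DNA-binding partner of STAT2, was at 45.0, 45.8 and 69.3 in quiescent and 326, 278 and 314 in activated libraries. Irf1 was at 39.5, 31.3 and 39.1 and then 243, 221 and 215. In both the groups were clear of each other, and the log2 fold changes were 2.52 ± 0.16 for Irf9 and 2.60 ± 0.15 for Irf1 (limma adjusted p = 3.43e-09 and 8.98e-10). Stat2 (1.27) and Irf7 (1.10) rose less, both calls were lost without the intensity trend, and that of Irf7 also without activated replicate 1. The cytoplasmic RNA sensors Ddx58 (RIG-I) and Ifih1 (MDA5) rose by 2.47 and 2.44. The ligand genes Ifnb1 and Ifna4 had 0 reads in all 6 libraries, which at these depths allows up to 3 reads in each.

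Antigen presentation by class I MHC rose with them. Of 14 tested genes 11 rose and none fell (median 1.44). Nlrc5, the transactivator of class I genes, went from 7.34, 6.37 and 3.78 to 72.9, 37.8 and 48.5 and rose by 2.97. Tap1, a subunit of the peptide transporter, was at 51.4, 45.8 and 40.3 and then 282, 198 and 213, a log2 fold change of 2.30 ± 0.16 (limma adjusted p = 9.00e-09). Tap2 rose by 1.63, and the immunoproteasome subunits Psmb8 and Psmb10 rose by 1.99 and 2.02. B2m, the light chain shared by all class I molecules, was at 1069, 1087 and 906 and then 2498, 2072 and 2327 and rose by 1.17. H2-K1 rose by 1.39 and H2-Q4 by 1.94. Reads of H2 genes can be split between similar copies, as can those of Gbp, Ifit and Trim genes, so the values of single members are uncertain.

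A part of the interferon-stimulated genes responded more strongly in SOD1G93A than in WT astrocytes. In a fit over the 12 libraries of both genotypes, the difference between the responses was called at a limma adjusted p under 0.05 in 34 of 12269 genes (0.277%), of which 33 (0.269%) responded more strongly upward, or fell less, in SOD1G93A cells and 1 (0.00815%), Dscaml1, fell more. On the interferon-stimulated list, chosen with earlier results of these data known, were 14 of the 34, and the other 25 of its 39 members in that fit were not called. Over the 39 members the median difference was 1.07 where that of all genes was 0.00, with 35 above 0. Markers of microglia moved the other way, with none called, a median difference of -0.71 and 1 of 18 above 0 (median response -0.67 in SOD1G93A and 0.01 in WT). Sex-linked genes also differed between the genotypes, as given at the end. Whether cell or sex makeup of the cultures bears on the difference was not tested. The WT response of the interferon-stimulated list had 14 rises, 1 fall and a median of 1.00 over 34 tested genes.

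Scaled over these 12 libraries, the 40 genes summed to 2242, 2144 and 1852 normalized counts in quiescent and 14081, 10708 and 10887 in activated SOD1G93A libraries. In WT libraries the sums were 1427, 1727 and 1960.5 when quiescent and 4769, 4682 and 4778 when activated. The quiescent libraries of both genotypes overlapped, and each activated SOD1G93A library exceeded every activated WT library. The first activated SOD1G93A library was the highest of the 3. Without it the list median of the difference was 0.96, and the count of genes called fell from 34 to 15, of which 9 were on the list. The drop in calls was not particular to this library. Without the second or the third activated SOD1G93A library the count was 20 and 15, with list medians of 1.19 and 1.25. The count ranged from 13 to 69 over all 12 ways of leaving out a library.

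**Figure D3:**
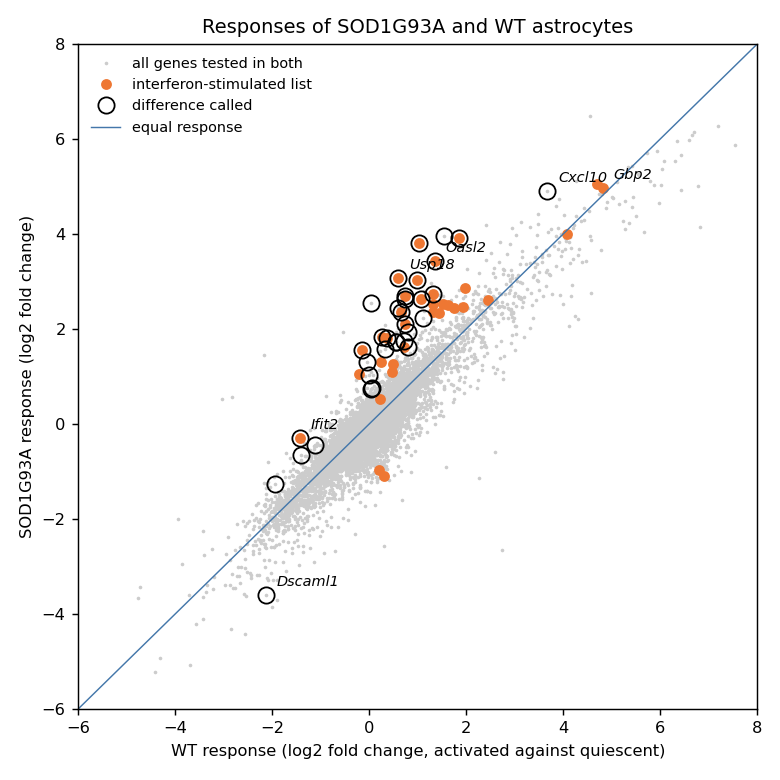
Log2 fold change of activated against quiescent SOD1G93A astrocytes (vertical axis) plotted over that of WT astrocytes (horizontal axis) for 12132 genes tested in both. Of these genes, members of the interferon-stimulated list are in orange and those whose difference was called are ringed. Genes not tested in WT are not drawn, and 34 of the 40 members of that list were tested there. All ringed genes but Dscaml1 lie above the line of equal response.

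Usp18 (chromosome 6, 121245906 to 121270917), which restrains the type I interferon receptor, was among the genes with the lowest p. On the scale of the 12 libraries it was at 25.1, 22.0 and 19.9 in quiescent and 217, 179 and 194 in activated SOD1G93A libraries, and at 15.5, 13.7 and 16.7 and 30.1, 20.2 and 21.2 in the WT ones. All activated SOD1G93A values were the highest, and the libraries of the other 3 groups lay between 13.7 and 30.1. The responses were 3.08 in SOD1G93A and 0.60 in WT, and their difference was 2.49 ± 0.29 (limma adjusted p = 0.00183). Oasl2 (chromosome 5, 114896936 to 114912234), an oligoadenylate synthetase-like antiviral protein, was at 51.7, 53.8 and 50.4 and 765, 467 and 525 in SOD1G93A libraries and at 22.1, 23.7 and 37.4 and 69.4, 62.0 and 80.6 in WT. It differed by 2.09 ± 0.28 (limma adjusted p = 0.00276).

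Gbp3 (chromosome 3, 142560026 to 142573209) and Gbp7 (chromosome 3, 142530342 to 142550149), neighbouring genes for guanylate-binding GTPases, differed by 1.36 ± 0.17 and 1.45 ± 0.19 (limma adjusted p = 0.00183 and 0.00234). Their relatives Gbp2 and Gbp6 did not pass, at differences of 0.17 and 0.35, and responded by 4.82 and 4.70 in WT. Irf1 likewise responded by 2.60 in SOD1G93A and 2.45 in WT, a difference of 0.16. Ifit3, an antiviral protein of the IFIT family, differed by 2.05 and was called in all 24 alternatives. Its sequence-related copy Ifit3b differed by 2.81, a call lost in 15 of 23. Ifit2 had a difference of 1.14, lost in 6 of 24, without a rise in either genotype, since its responses were -0.30 and -1.43. Rtp4, an interferon-induced transporter protein, differed by 2.42, Trim25, the ubiquitin ligase that activates RIG-I, by 1.57 and Irgm1, a GTPase of autophagy, by 1.43.

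For the NF-kB targets named above no difference was called. The differences between responses were -0.57 for Nfkbia, -0.54 for Lcn2, -0.75 for C3, -0.61 for Ccl2 and -0.38 for Cxcl1. In the list of NF-kB subunits and inhibitors 3 of 14 differences were above 0. Other lists also leaned to one side. Differences were above 0 in 21 of 21 genes of sterol synthesis (median 0.39, 0 called) and 13 of 14 of class I antigen presentation (median 0.46, 1 called). Among chemokines 2 of 16 were above 0 (median -0.58, 1 called). Cxcl10 (chromosome 5, 92346638 to 92348889), a T cell attractant that both pathways can induce, was at 72.0, 62.9 and 42.5 and 2038, 1697 and 1555 in SOD1G93A libraries and 33.1, 41.1 and 52.5 and 509.7, 534 and 571 in WT. Its difference of 1.24 ± 0.25 was called with little to spare (limma adjusted p = 0.0492) and lost the call in 15 of 24 alternatives.

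Outside immune genes the difference was called for several genes of varied function, and those that follow other than Dscaml1 were named after their values were seen. Asns, asparagine synthetase, was at 203, 158 and 163 and 469, 396 and 425 in SOD1G93A libraries and at 168, 181 and 244 and 195, 179 and 186 in WT. It responded by 1.30 and -0.06, a difference of 1.36 ± 0.19 (limma adjusted p = 0.00283). Phgdh and Psat1, enzymes of serine synthesis, had log2 fold changes of -0.65 and -0.46 in SOD1G93A and -1.41 and -1.13 in WT, so that their levels dropped less in SOD1G93A cells, by differences of 0.76 and 0.68. The call of Asns was kept in all 24 alternatives, whereas that of Phgdh was lost in 12 of 24 and that of Psat1 in 7. Dscaml1 (chromosome 9, 45426628 to 45753712) was the exception in direction. It was at 287, 270.0 and 341 and 20.2, 24.1 and 26.8 in SOD1G93A libraries and 272, 274 and 249 and 60.3, 64.0 and 53.8 in WT, a difference of -1.46 ± 0.20 (limma adjusted p = 0.00276).

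Library depth varied between the groups of both genotypes, and the number and direction of differing genes moved between fits. With log2 reads per library as a term 1080 genes were called, 664 higher and 416 lower in SOD1G93A, and without the deepest quiescent library of each genotype 98, 74 higher and 24 lower. Without WT quiescent replicate 3, the deepest of its group, 34 were higher and 17 lower, without WT quiescent replicate 1, the shallowest library, 61 and 8, and with DESeq2 59 and 9. The calls of these fits were less one-sided than those of the main fit. The part of depth in the moves was not tested. The number of interferon-stimulated genes called higher was 28 with the term for reads and 15 without the deepest libraries, against 14 in the main fit, and none was called lower in any of the 3. In every one of the 12 fits that leave out a library, 12 genes were called, of which 8 were on the list. Among them were Asns, Dscaml1, Gbp3, Gbp7, Ifit3, Irgm1, Oasl2, Rtp4, Tor3a, Trim25 and Usp18. No gene passed the stricter limits used for the responses themselves, where 1018 had an unadjusted limma p under 0.05.

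**Figure D4:**
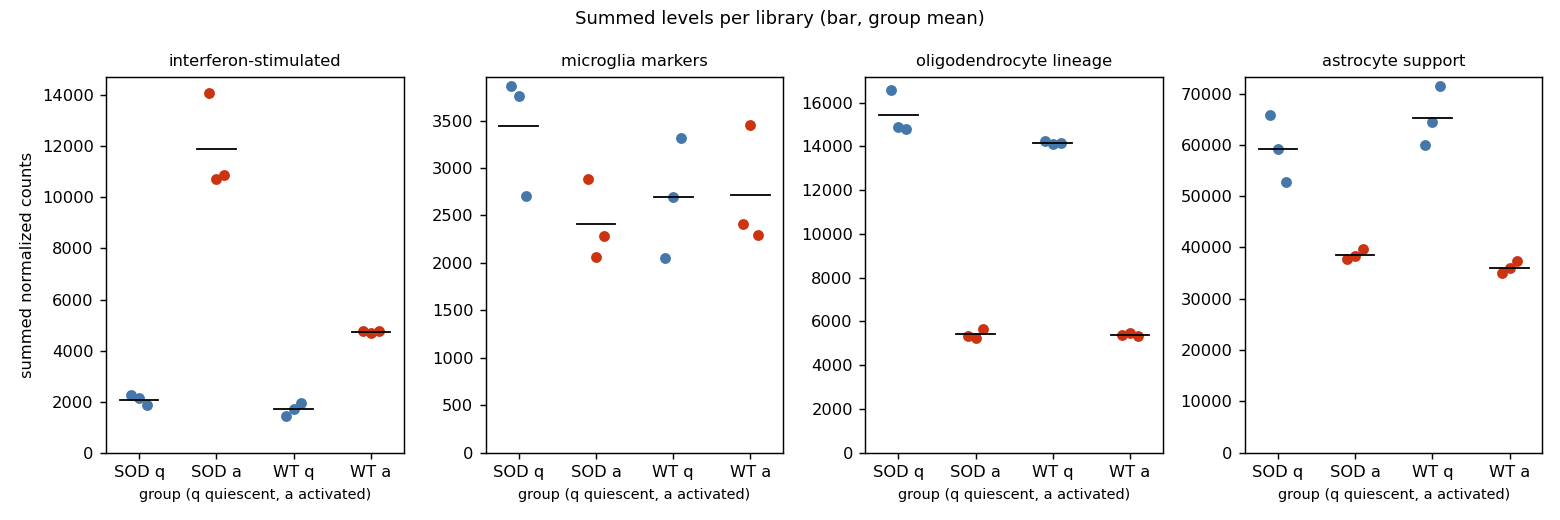
Summed normalized counts of 4 gene lists in each of the 12 astrocyte libraries, scaled together, with a point for each library and a bar for each group mean. Interferon-stimulated sums of activated libraries lie at 10708 or above in SOD1G93A and at 4778 or below in WT, while the oligodendrocyte lineage sums of activated libraries overlap between the genotypes.

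Promoter sequence was examined because many genes moved together. Promoters of 300 bases, from 250 before to 50 after the start of a gene, came from RefSeq on GRCm38.p6, and 594 of the 823 genes that rose and 27 of the 33 with a larger response in SOD1G93A were found there. Both strands were searched for the core of the interferon-stimulated response element, TTTC, any 2 bases and TTTC. It was in 3.99% of all promoters, 3.59% of those of tested genes, 8.75% of those of genes that rose (52 genes), 4.77% of those of genes that fell (28 genes) and 40.7% of those of genes with a larger response in SOD1G93A (11 genes). A loose form of the NF-kB motif, GGG, any 5 bases and CC, was in 53.5% of all promoters, 72.9% of those of tested genes, 75.8% of those of genes that rose, 73.6% of those of genes that fell and 66.7% of those with a larger response in SOD1G93A, so it hardly separated them. After these shares were seen 6 other forms were tried. With TTT as the last 3 of the 5 free bases the motif was in 1.99% of promoters of tested genes and 4.88% of those of genes that rose, and with A before the free base as well in 0.525% and 2.02%. With TT in place of the last 2 free bases the shares were 7.20% and 11.1%, and with TT and a free base after it 6.54% and 10.3%. Of forms shorter by a base, which are not special cases of the loose motif, GGANTTTCC was in 1.59% and 4.71%, and GGGNNNTCC in 27.0% and 31.8%. The last form and the 2 forms with TT were each in 14.8% (4 genes) of the promoters of genes with a larger response in SOD1G93A, the form with A before the free base in none, and the other 2 in 3.70% (1 gene). A match is a description, not a site or a cause.

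The promoters of 6 genes with large responses are printed on the strand of the gene, 5′ to 3′, chosen because they hold a match. Capitals mark the loose NF-kB motif on either strand in Lcn2 (chr2:32387690-32387989, minus strand), Nfkbia (chr12:55492598-55492897, minus strand) and Cxcl1 (chr5:90890995-90891294, plus strand), and the interferon motif on either strand in Gbp3 (chr3:142559794-142560093, plus strand), Ifit3 (chr19:34583279-34583578, plus strand) and Cxcl10 (chr5:92348840-92349139, minus strand).
Lcn2: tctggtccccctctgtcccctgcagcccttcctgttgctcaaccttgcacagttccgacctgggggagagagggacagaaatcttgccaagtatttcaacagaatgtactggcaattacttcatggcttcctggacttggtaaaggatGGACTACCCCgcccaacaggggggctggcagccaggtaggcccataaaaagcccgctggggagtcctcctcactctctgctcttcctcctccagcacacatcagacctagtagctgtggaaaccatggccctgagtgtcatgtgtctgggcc
Nfkbia: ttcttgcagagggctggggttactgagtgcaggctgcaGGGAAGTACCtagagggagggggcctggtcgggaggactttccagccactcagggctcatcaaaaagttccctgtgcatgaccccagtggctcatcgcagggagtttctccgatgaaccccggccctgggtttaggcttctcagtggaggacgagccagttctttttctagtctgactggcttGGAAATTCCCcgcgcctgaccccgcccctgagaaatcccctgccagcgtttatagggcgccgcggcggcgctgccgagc
Cxcl1: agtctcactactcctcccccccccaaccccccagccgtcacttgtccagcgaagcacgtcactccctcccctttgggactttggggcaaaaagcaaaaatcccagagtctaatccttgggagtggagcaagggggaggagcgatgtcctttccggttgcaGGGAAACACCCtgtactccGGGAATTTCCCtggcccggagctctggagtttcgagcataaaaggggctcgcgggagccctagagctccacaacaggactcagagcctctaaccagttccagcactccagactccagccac
Gbp3: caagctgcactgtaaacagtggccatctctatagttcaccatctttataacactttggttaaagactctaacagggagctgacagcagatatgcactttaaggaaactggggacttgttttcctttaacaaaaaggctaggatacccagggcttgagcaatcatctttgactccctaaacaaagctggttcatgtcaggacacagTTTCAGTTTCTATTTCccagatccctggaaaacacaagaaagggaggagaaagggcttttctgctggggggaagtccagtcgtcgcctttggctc
Ifit3: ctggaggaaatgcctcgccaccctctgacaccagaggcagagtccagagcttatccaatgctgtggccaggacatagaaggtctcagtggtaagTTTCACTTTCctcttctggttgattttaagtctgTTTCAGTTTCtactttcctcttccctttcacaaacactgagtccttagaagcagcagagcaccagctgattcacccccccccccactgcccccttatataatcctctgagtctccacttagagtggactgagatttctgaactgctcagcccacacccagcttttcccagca
Cxcl10: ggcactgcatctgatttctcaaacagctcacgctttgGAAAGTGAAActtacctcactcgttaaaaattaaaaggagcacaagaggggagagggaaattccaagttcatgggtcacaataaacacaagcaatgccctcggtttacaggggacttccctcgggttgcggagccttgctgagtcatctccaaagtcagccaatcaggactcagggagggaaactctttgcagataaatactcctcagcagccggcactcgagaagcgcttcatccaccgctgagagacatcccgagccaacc
Matches that overlap run together in capitals, as in Gbp3.

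Transcription factors that follow cytokine signals rose in 11 of 20 tested cases and fell in 2 (median 1.29). Cebpd, a driver of acute phase genes, was at 45.9, 42.9 and 37.8 and then 1168, 1264 and 1114. It rose by 4.78 ± 0.11 (limma adjusted p = 5.08e-14) with tight groups, and its relative Cebpb rose by 2.98. Fosl1, a subunit of AP-1, rose by 5.12, and Ier3, an early response gene that limits cell death, by 3.86. Egr1, an immediate early factor of growth signals, moved the other way, from 6259.9, 5288 and 5661 to 1876, 2359 and 2046. It fell by 1.46 on the log2 scale.

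Of 13 tested genes for adhesion molecules 6 rose and none fell (median 0.32), where 6.74% of all tested genes rose and 6.40% fell. Vcam1 was at 237, 203 and 153 and then 2366, 2101 and 2215. Icam1 was at 28.0, 30.7 and 23.9 and then 178, 179.6 and 181. Both ligands of leukocyte integrins were far higher in all activated libraries, with log2 fold changes of 3.51 ± 0.13 and 2.67 ± 0.16 (limma adjusted p = 6.10e-12 and 1.47e-09). Sele, E-selectin, an adhesion protein best known from endothelium, rose by 5.70 to 93.2, 114 and 116 from few quiescent reads, in libraries where Cldn5 and Cdh5 were at 0. Flt1 went from 20.2, 23.8 and 25.2 to 514, 511 and 496, a log2 fold change of 4.41 ± 0.13 (limma adjusted p = 6.97e-13). Itgb1, the common integrin β chain, had a log2 fold change of 0.32.

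Collagens and matrix genes rose in 10 of 19 tested cases and fell in 2 (median 1.06). Among all tested genes 6.74% rose and 6.40% fell. Tnc, the injury-induced matrix protein tenascin C, was at 3741, 3022 and 2561 and then 18793, 16321 and 15824. It was the most highly counted gene of its list and rose by 2.46 ± 0.14 (limma adjusted p = 9.93e-10). Has2, which makes hyaluronan, rose by 4.78, Col6a1 by 2.37 and Col5a1 by 2.30. Of 23 tested matrix proteases and inhibitors 10 rose and 4 fell (median 0.49). Mmp9, a gelatinase, rose by 5.02 and Mmp3, stromelysin, by 4.14, both from few quiescent reads, and Mmp19 rose by 3.01, a call lost without the intensity trend.

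Genes for supportive functions of astrocytes fell in 9 of 23 tested cases and none rose, while 14 did not pass, with a median log2 fold change of -0.92. Slc6a11, the GABA transporter GAT-3, was at 4113, 3502 and 3204 in quiescent and 522, 545 and 521 in activated libraries. It was lower in every activated library, with a log2 fold change of -2.76 ± 0.10 (limma adjusted p = 5.45e-12). Ntsr2, a neurotensin receptor typical of astrocytes, fell by 2.45 on the log2 scale, a call lost without the intensity trend. GLAST, at 0.27, had the highest value of the list and was not called.

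Transcription factors of glia and genes of Notch signalling fell in part. Of 24 tested genes 3 rose and 5 fell (median -0.33), where 6.74% of all tested genes rose and 6.40% fell. Hes5, a Notch target, was at 52.3, 46.9 and 59.2 and then 5.98, 4.58 and 4.22. Hes1, another target, was at 225, 221 and 238 and then 88.4, 97.3 and 97.0. Both were lower in all activated libraries, at log2 fold changes of -3.19 ± 0.30 and -1.27 ± 0.12 (limma adjusted p = 2.68e-07 and 2.25e-07). Of the Notch ligands Dll1 had a log2 fold change of -1.71 and fell, while Jag1 rose by 1.41. Rfx4, a factor of glial cells, had a log2 fold change of -1.94. Of the bone morphogenetic proteins, Bmp7 had -2.11 and fell, whereas Bmp2 rose by 4.58 from few quiescent reads. Bmp2 reached the mean needed for testing through the activated libraries alone, so the count of rises depends in part on the filter.

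Cell cycle genes fell nearly as a whole. Of 32 tested genes 30 fell and 1 rose, with a median of -1.65. Mki67, the proliferation marker Ki-67, was at 4696, 4193 and 4008 and then 1141, 881 and 970.3, a log2 fold change of -2.11 ± 0.11 (limma adjusted p = 2.93e-10). Aurkb and Kif11, which act in mitosis, and Cdc6, which licenses DNA replication, had log2 fold changes of -2.10, -2.05 and -2.01. The gene that rose was Cdkn1a, which encodes the cell cycle inhibitor p21, at 819.9, 714 and 659 and then 2279, 2345 and 2356. It rose by 1.67 ± 0.10 (limma adjusted p = 1.01e-09). Ccnd1, a cyclin of growth signals, had a log2 fold change of 0.22 and overlapping groups. In WT cells 27 of the 32 fell.

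Markers of the oligodendrocyte lineage fell in 3 of 10 tested cases (median -0.36) and none rose, where 6.40% of all tested genes fell and 6.74% rose. The 14 markers summed to 15749.7, 14102 and 14065 normalized counts in the quiescent libraries and 5073, 4985 and 5339 in the activated ones, with no marker at 0 in all libraries. Most of this was Olig1, the most abundant per kilobase, and Olig2, transcription factors that cultured astrocytes can also express. Olig1 was at 9887, 8647 and 8486 and then 2317, 2316 and 2656. Olig2 was at 4268, 3914 and 4148 and then 1597, 1483 and 1546. Both were lower in every activated library, at log2 fold changes of -1.89 ± 0.11 and -1.41 ± 0.09 (limma adjusted p = 1.24e-09 and 4.69e-09). Gpr17, a receptor of differentiating precursors, was the remaining fall, at -2.94.

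Neuronal markers rose in 3 and fell in 1 of 10 tested cases (median 0.42), where 6.74% of all tested genes rose and 6.40% fell. The sum of these markers was 4097, 4317 and 4275 in the quiescent and 2060.2, 2076 and 2159.9 in the activated libraries. No marker was at 0 throughout. The sum was mostly Map2, a microtubule protein and the most abundant per kilobase, which went from 3930.4, 4126 and 4051 to 1603, 1706 and 1795. Map2 had a log2 fold change of -1.25 ± 0.09 (limma adjusted p = 2.12e-08). Nefm, a neurofilament (2.83), Eno2, an enolase (2.55), and Tubb3, a tubulin (1.78), rose at lower levels.

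None of 21 tested genes of sterol synthesis was called (median 0.31), and Hmgcs1, an early enzyme of the pathway, was at 4313, 3517 and 2848 and then 3539.7, 3289.7 and 3634. In glycolysis 5 of 20 tested genes rose and 1 fell (median 0.23), where 13.1% of all tested genes were called. Slc16a1, a lactate transporter, rose by 1.56, Pfkp, a phosphofructokinase, by 1.50, and Hk2, the inducible hexokinase, by 1.36. Aldoc, the aldolase of astrocytes, was at 1509, 1563 and 1318 and then 642, 569.8 and 618. It fell, at a log2 fold change of -1.26 ± 0.10 (limma adjusted p = 2.28e-08), and by less than in WT, where the value was -1.94 (difference 0.68, limma adjusted p = 0.04), a difference whose call was lost in 11 of 24 alternatives.

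Genes by which astrocytes shape and clear synapses rose in 2 and fell in 2 of 16 tested cases (median 0.53), where 6.74% of all tested genes rose and 6.40% fell. Thbs2, a thrombospondin that promotes synapse formation, was at 20.6, 13.3 and 15.1 and then 326, 376 and 369, a log2 fold change of 4.39 ± 0.17 (limma adjusted p = 1.44e-11). Gas6, a bridging ligand of the TAM receptors, rose by 1.44. Mfge8, a bridge between dying cells and integrins, was at 2547, 2318 and 2109 and then 699, 803 and 664. It fell in all activated libraries, at -1.69 ± 0.10 (limma adjusted p = 1.82e-09). Megf10, an engulfment receptor, had a log2 fold change of -1.03, a call lost with depth as a term, without quiescent replicate 1, without activated replicate 2 and without the deepest quiescent libraries. Abca1, a lipid exporter and the most highly counted of the list, had 0.78.

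Sex-linked genes varied between the libraries. Xist, the RNA of the inactive X chromosome, was at 5046, 10408 and 14380.4 in the quiescent and 5993, 4787 and 3752 in the activated libraries. Ddx3y, on the Y chromosome, was at 57.4, 60.8 and 66.8 and then 80.1, 81.2 and 69.6. Each library held both, the Xist groups overlapped, and none of the 5 sex genes was called, with a log2 fold change of -0.94 for Xist. Scaled over 12 libraries, Ddx3y was at 60.4, 64.1 and 70.4 in quiescent and 84.4, 85.7 and 73.7 in activated SOD1G93A libraries, and at 124, 149 and 134 and 193, 152 and 173 in WT. Xist was at 5317, 10973 and 15146 and 6318, 5049 and 3975 in SOD1G93A, and at 3911, 2978 and 1228 and 2418, 2245 and 2003 in WT.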

How the data were processed

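The authors used STAR 2.7.3a to align strand-specific paired-end reads to mm10, RSEM to count reads of each gene, and DESeq2 to normalize. The deposited values are a signal, the read count of a gene divided by the size factor of a library. With the smallest value above 0 of a library taken as 1 read, 100% of values were whole multiples of it to within 0.05 of a read, so reads were recovered, and the 6 SOD1G93A astrocyte libraries were normalized together by median-of-ratios factors. The authors' own comparison columns hold fold changes and p-values and were not used. The annotation the authors used is not given in the sources used here. Of 24411 listed genes, 23376 matched a symbol of GENCODE M21 and 1035 did not.

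Genes whose mean reached 10 normalized counts were tested with limma 3.58.1 with an intensity trend, in R 4.3.3, on log2(normalized count + 1), with Benjamini-Hochberg adjustment. A gene was called at an adjusted p under 0.001 and more than 2-fold. The difference between genotypes was an interaction term over 12 libraries scaled together, called at an adjusted p under 0.05. DESeq2 1.42.0 and edgeR 4.0.16 on the recovered reads, other pseudocounts, filters and scalings, a replicate block and leaving out each library were alternatives. Fits were also run on simulated data, whose results are not reported here. Promoters of chromosome 18 were left out.

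The named genes were 11 set genes, the 8 largest rises and 8 largest falls whose mean reached 50 normalized counts and with groups that do not overlap, up to 4 called members with the largest change in each of 28 lists, the member with the highest mean, members with a set role, the most abundant markers of other cells and those at 0, and the 5 genes with the lowest p of the difference in each direction. Not all of these are given in the text, and results for some genes are not reported here. The other genes of the difference, Cdkn1a, Il1a, Tnf, Nos2, Csf1r, Ifnb1, Ifna4 and the sex genes were chosen after values were seen. The members and lists were chosen with earlier results of these data known. A gene can be in several lists.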

Additional observations from a re-analysis of the deposited data

Results flagged for a closer look

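The responses of SOD1G93A and WT astrocytes to the cytokine mixture were compared by an interaction term over 12 libraries, and 34 genes passed a limma adjusted p under 0.05. All values below are the SOD1G93A response minus the WT response on the log2 scale. On the interferon-stimulated list the differences included 2.49 for Usp18, 1.36 for Gbp3, 1.45 for Gbp7, 2.09 for Oasl2, 1.57 for Trim25, 2.05 for Ifit3, 1.43 for Irgm1, 2.09 for Xaf1, 1.14 for Ifit2, 1.98 for Ifit1, 1.58 for Rsad2, 2.81 for Ifit3b and 1.71 for Cmpk2. Among immune genes outside that list they were 2.42 for Rtp4, 1.05 for Tor3a, 1.19 for Parp12, 1.12 for Parp9, 2.53 for Samd9l, 1.14 for H2-Q4, 1.86 for Trim30a, 1.89 for Trim34a, 1.17 for Zc3hav1 and 1.24 for Cxcl10. For enzymes of amino acid and sugar metabolism they were 1.36 for Asns, 0.68 for Psat1, 0.76 for Phgdh and 0.68 for Aldoc. The remaining genes were Angpt2, a ligand of the vessel receptor Tie2 (1.04), Nudt4, a phosphatase of inositol pyrophosphates (0.71), Lix1 (1.27), the kinase gene Mapk10 (0.82), the GABA receptor subunit Gabbr1 (0.69) and Dscaml1, whose fall was larger in SOD1G93A astrocytes (-1.46). Of the 34 genes, 12 were called in each of the 12 fits that leave out a library, and the other 22 lost the call in at least 1 of the fits tried.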

How the results depend on the processing

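The count of SOD1G93A response genes, 1604, stayed within 1.5 times under every alternative but 1, an adjusted p under 0.05 at any fold, which gave 5262. In WT astrocytes that limit gave 4722 against 1424. Leaving out each library gave 1468 to 1625 calls in SOD1G93A and 1093 to 1540 in WT astrocytes. The difference between the responses, 34 genes, moved more. It gave 19 genes with no filter on low values, 68 with DESeq2, 15 with limma without an intensity trend, and 0 at an adjusted p under 0.001 and more than 2-fold, where 1018 genes had an unadjusted p under 0.05. Leaving out each library gave 13 to 69. A term for log2 reads per library gave 1080 (664 higher and 416 lower in SOD1G93A), and leaving out the deepest quiescent library of each genotype gave 98 (74 and 24), against 33 and 1 in the main fit, and both alternatives were chosen after seeing the data. The cause of these moves was not tested.

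Same-numbered SOD1G93A libraries had correlations of deviations of 0.022, -0.003 and -0.044 across genes, and same-numbered WT libraries 0.056, 0.030 and 0.017. With 3 libraries in a group these values cannot tell whether replicate numbers pair the samples. A replicate block gave 1584 calls in SOD1G93A, 1423 in WT and 15 for the difference. Not every sample correlated best with its own number.

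Of 151 named genes called in the SOD1G93A response, 134 were called in every alternative that tested them, 26 of which were filtered out of at least 1, while 17 lost the call under at least 1, and none changed sign. Among 45 named genes not called, 9 changed sign in some fit. Depth of 2135439 to 9526331 reads limits genes with few quiescent reads, for which log2 values depend on the pseudocount.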
